A study of Caenorhabditis elegans with 6 samples.

Results

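Basic helix-loop-helix (bHLH) factors that specify neurons, muscle, mesoderm and glands were followed in whole Caenorhabditis elegans worms carrying hlh-30(tm1978), against the wild-type strain N2. The group held 10 genes, hlh-1, hlh-2, hlh-3, hlh-4, hlh-6, hlh-8, hlh-14, lin-32, cnd-1 and ngn-1. They were found by their gene symbol in the platform's probe annotation, which gave 11 probe sets of 22548 on the array (control probe sets left out) and 10 genes of 17118. Each array was hybridised with RNA of 1 biological replicate, 3 hlh-30(tm1978) and 3 N2. Within a replicate the RNA of embryos and of L1 and L2 larvae, the earliest larval stages, had been pooled from worms grown at 20 degrees Celsius. The tm1978 allele was the only difference named between the groups, and no source used here states whether that strain had been outcrossed.

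Proneural and myogenic bHLH factors bind DNA as dimers, typically at the E-box CANNTG, and most of them need a broadly expressed class I partner, which in the worm is HLH-2. Their class II partners are restricted to a few lineages, where many of them commit precursors to a neuronal, muscle, mesodermal or gland fate. Many act during embryogenesis. HLH-30, the worm counterpart of mammalian TFEB, is a bHLH factor of another class, known for activating lysosomal and autophagy genes.

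None of these bHLH genes passed the test for a difference between the genotypes. With limma, 0 of the 9 genes tested were called at an adjusted p under 0.05, where 0.143% of all 9113 genes tested were called (0.132% lower and 0.0110% higher in the mutant), and 1 of the 9 had an unadjusted p under 0.05. That gene was hlh-1, the worm counterpart of MyoD. Of the 9 fitted differences, 8 lay above 0, as those of 4193 of the 9113 genes did, and that of hlh-2 lay below it. The median was 0.31 on the log2 scale, beside −0.010 over all genes tested. It was 0.054 without the arrays of replicate 3 of both genotypes, on which several of these genes stood apart.

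**Figure D1:**
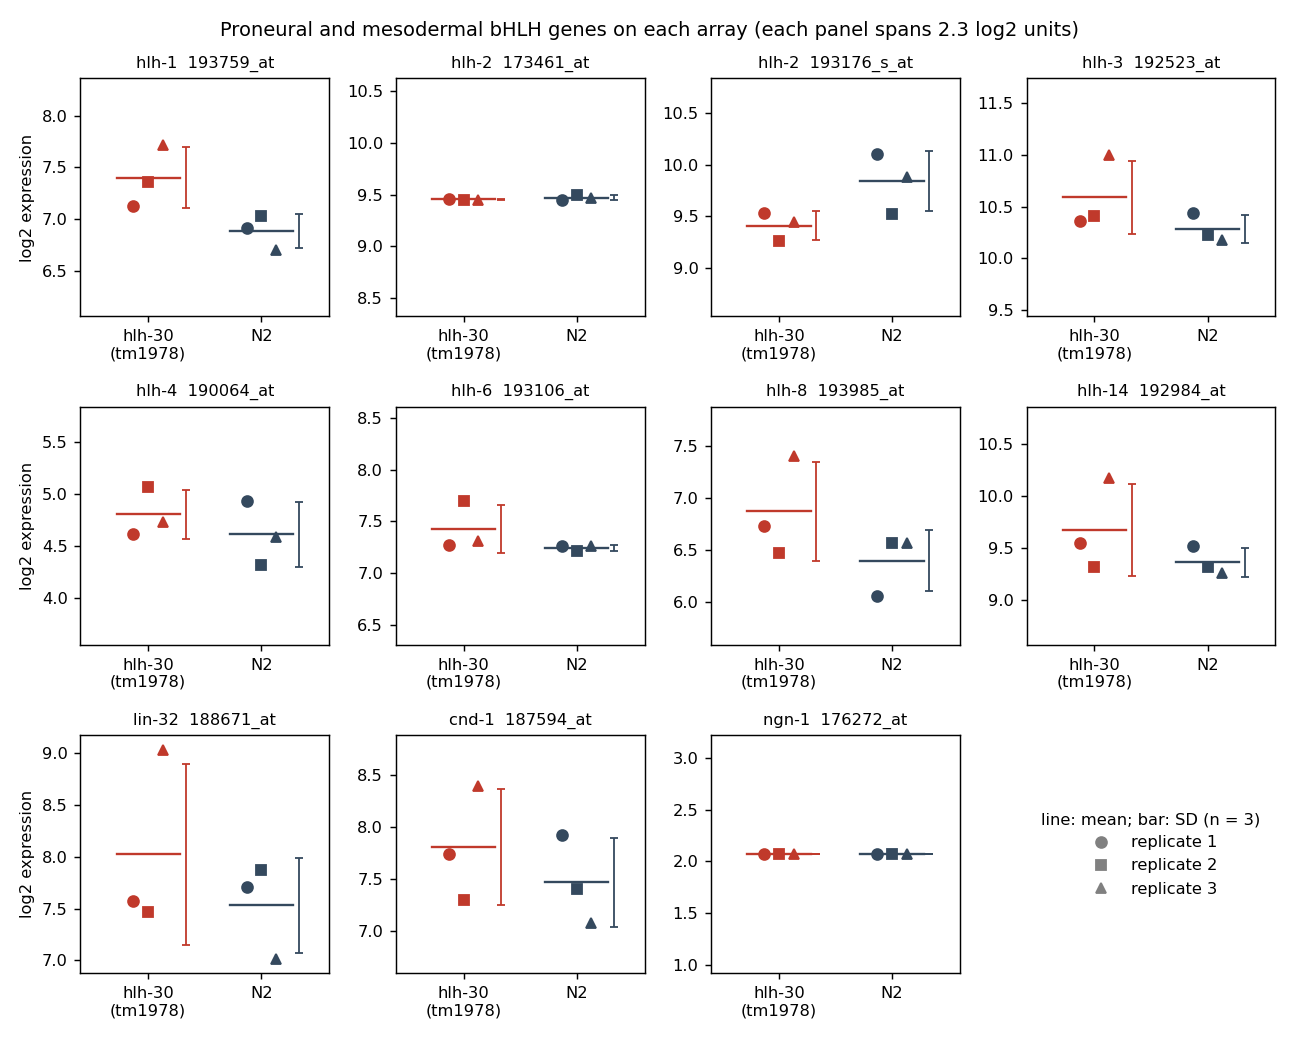
Log2 expression (vertical axis) of the 10 bHLH genes at their 11 probe sets in hlh-30(tm1978) and N2 worms, with 1 symbol per array, the mean as a line and the SD as a bar (n = 3 each). Replicate 3 of the mutant, a triangle, is the highest point for hlh-1, hlh-3, hlh-8, hlh-14, lin-32 and cnd-1, and ngn-1 lies at 2.07 on all arrays.

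The arrays were checked before these genes were read. At the brightest probe set of hlh-30 itself, 174862_at, the mutant arrays read 9.66 to 10.65 and the N2 arrays 12.05 to 12.34, and the genotypes did not overlap at its other probe sets either. Even so, none of its 3 probe sets was called, with limma adjusted p of 0.128 at that probe set and of 0.121 and 0.260 at the others. No source used here says where these probes lie relative to the tm1978 lesion. Most markers of the tissues these factors specify passed the filter on dim signals. These were 7 of 7 for body wall muscle, 6 of 7 for neurons and 7 of 7 for pharyngeal glands. The neuron marker rgef-1 lay at the floor of the values. Passing the filter alone does not show detection, as the gland marker phat-1 read 8.01 on every array and phat-3 4.85 to 4.97. Over the probe sets tested, mutant 3 had a mean correlation of 0.962 with the other mutant arrays, against 0.978 to 0.980 for mutant 1 and mutant 2, and N2 3 had 0.977 with the other N2 arrays, against 0.986 to 0.987. Early embryo and maternal transcripts moved with these arrays. Of 23 such markers 18 were tested, and 15 of the 18 read highest on mutant 3. Their mean log2 value was 6.87, 6.90 and 8.39 on mutant 1 to mutant 3, against 7.60, 7.31 and 6.93 on N2 1 to N2 3, and of the untested ones chs-1 was at the floor. In whole worms, fewer cells of a type and less RNA per cell cannot be told apart. Precision is limited by having 3 arrays per genotype.

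The mesodermal factors were hlh-1 and hlh-8. HLH-1 drives body wall muscle fate, and its transcript (Entrez gene 173788, probe set 193759_at) read 7.13, 7.36 and 7.71 on the mutant arrays and 6.91, 7.03 and 6.71 on the N2 arrays, in log2 units. Each mutant array lay above each N2 array, by a gap of 0.095 between the lowest mutant and the highest N2 value. The means were 7.40 ± 0.29 in the mutant and 6.88 ± 0.17 in N2 (SD, n = 3 each), a log2 difference of 0.52 (SE 0.18, 95% interval 0.057 to 0.98) or 1.43-fold. The limma p was 0.034 before adjustment, a level that 8.59% of all genes passed in either direction and 1.66% with the mutant higher, and 0.482 after it. Without replicate 3 of both genotypes the difference was 0.27.

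HLH-8, the Twist counterpart, patterns the mesoderm that forms after hatching from a single blast cell, including egg-laying muscles. Its transcript (Entrez gene 181069, 193985_at) read 6.73, 6.47 and 7.41 on the mutant arrays and 6.06, 6.57 and 6.57 on the N2 arrays. The genotypes overlapped, with mutant 2 under the higher N2 arrays and mutant 3 above every other array. The log2 difference was 0.48 (SE 0.29, 95% interval −0.28 to 1.23; limma adjusted p 0.705), and 0.29 without both arrays of replicate 3.

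hlh-2 encodes the class I partner, the counterpart of E proteins and of fly Daughterless, and was the only tested gene of the 9 with a difference below 0. It was read by a pair of probe sets (Entrez gene 172458) that gave different pictures. At 193176_s_at the mutant arrays read 9.53, 9.26 and 9.44 and the N2 arrays 10.10, 9.53 and 9.88. The highest mutant value lay above the lowest N2 value by only 0.000366. Means of 9.41 ± 0.14 in the mutant and 9.84 ± 0.29 in N2 (SD, n = 3 each) gave a log2 difference of −0.43 (SE 0.17, 95% interval −0.86 to 0.010; limma adjusted p 0.566). This difference did not rest on the arrays of replicate 3, without which it was −0.42.

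At the other hlh-2 probe set, 173461_at, the mutant arrays read 9.46, 9.45 and 9.45 and the N2 arrays 9.45, 9.49 and 9.47. The whole range of 0.045 over the 6 arrays ranked 415th from the narrowest among the 12060 probe sets tested, and mutant 2, mutant 3 and N2 1 held the same value to all digits deposited. The log2 difference there was −0.017 (SE 0.041, 95% interval −0.12 to 0.087; limma adjusted p 0.909). Averaging both probe sets gave −0.22 for the gene. Identical values on at least 1 pair of arrays were common in these data, in 5062 of the 12060 probe sets tested. Among these were the probe sets of hlh-6 (N2 1 and N2 3), hlh-8 (N2 2 and N2 3) and hlh-14 (mutant 2 and N2 2).

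Of the achaete-scute-like neuronal genes, hlh-3 and hlh-14 had like patterns. HLH-3 acts in differentiation of the HSN motor neurons, and its transcript (Entrez gene 174447, 192523_at) read 10.36, 10.41 and 10.997 on the mutant arrays and 10.44, 10.23 and 10.18 on the N2 arrays. HLH-14, which acts in lineages that give rise to neurons including HSN and PVQ, had a transcript (Entrez gene 182758, 192984_at) at 9.54, 9.31 and 10.17 on the mutant arrays and 9.52, 9.31 and 9.25 on the N2 arrays. In both genes mutant 3 stood above all other arrays, N2 3 was the lowest, and the remaining mutant and N2 arrays interleaved. The log2 differences were 0.31 for hlh-3 (SE 0.20, 95% interval −0.20 to 0.82; limma adjusted p 0.714) and 0.31 for hlh-14 (SE 0.24, 95% interval −0.31 to 0.94; limma adjusted p 0.754). Without both arrays of replicate 3 they were 0.054 and 0.012.

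hlh-4, an achaete-scute-like gene of the ADL sensory neurons, was the dimmest of these genes to pass the filter, which asked for a log2 value of at least 4 on at least 3 arrays. It (Entrez gene 176372, 190064_at) read 4.62, 5.07 and 4.73 on the mutant arrays and 4.94, 4.32 and 4.58 on the N2 arrays, and the genotypes overlapped from 4.62 to 4.94. Its log2 difference was 0.20 (SE 0.21, 95% interval −0.33 to 0.72; limma adjusted p 0.796), with 0.048 without N2 2, 0.064 without mutant 2 and 0.36 without N2 1. Outside the filter lay ngn-1, the neurogenin counterpart (Entrez gene 177045, 176272_at), which read 2.07 on all 6 arrays, beside a floor of 2.04 shared by the arrays. It was not tested, and a difference in ngn-1 was not detectable here.

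lin-32 varied most between arrays of the tested genes, over 2.02 log2 units. LIN-32, the Atonal counterpart, is needed for sensory neuron precursors, among them those of touch neurons and of the male rays. Its transcript (Entrez gene 191703, 188671_at) read 7.57, 7.47 and 9.03 on the mutant arrays and 7.71, 7.87 and 7.01 on the N2 arrays. The highest and the lowest of the 6 values were thus both on arrays of replicate 3, and mutant 1 and mutant 2 lay under N2 1 and N2 2. The log2 difference was 0.49 (SE 0.51, 95% interval −0.82 to 1.81; limma adjusted p 0.795), and −0.27 without both of those arrays (limma adjusted p 0.212). Without mutant 3 alone it was −0.012.

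CND-1, the NeuroD counterpart, acts in embryonic motor neuron precursors. Its transcript (Entrez gene 183212, 187594_at) read 7.74, 7.29 and 8.40 on the mutant arrays and 7.93, 7.41 and 7.07 on the N2 arrays. Again mutant 3 was highest and N2 3 lowest, and each of the other mutant arrays lay between N2 values. The log2 difference was 0.34 (SE 0.37, 95% interval −0.60 to 1.28; limma adjusted p 0.798) and turned to −0.15 without both arrays of replicate 3.

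HLH-6 is an achaete-scute-like factor needed for pharyngeal gland development. Its transcript (Entrez gene 188539, 193106_at) read 7.27, 7.70 and 7.31 on the mutant arrays and 7.26, 7.21 and 7.26 on the N2 arrays. The genotypes did not overlap, but the gap between them was 0.0082, and mutant 2 alone stood clearly apart. The highest N2 value was held identically by N2 1 and N2 3. The log2 difference was 0.18 (SE 0.13, 95% interval −0.15 to 0.51; limma adjusted p 0.733), and 0.046 without mutant 2. Together with hlh-1 this made 2 of 9 genes whose arrays did not overlap, where 13.6% of all genes tested did not, 3.76% with the mutant above and 9.87% with it below.

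**Figure D2:**
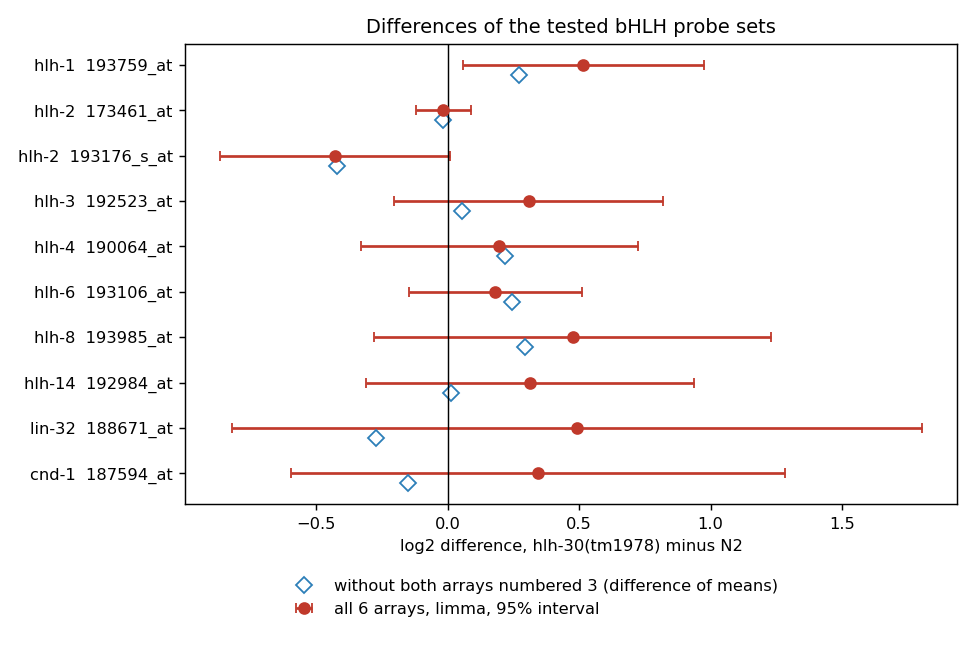
Log2 difference, hlh-30(tm1978) minus N2 (horizontal axis), of the 10 bHLH probe sets tested, as the limma value over all 6 arrays with its 95% interval (filled circles) and as the difference of means without both arrays of replicate 3 (open diamonds). The interval of hlh-1 lies from 0.057 to 0.98, that of hlh-2 at 193176_s_at from −0.86 to 0.010, and the diamonds of lin-32 and cnd-1 lie below 0.

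Several of these genes were extreme on the arrays of replicate 3. Of the 9 tested genes, 6 read highest on mutant 3, as 28.1% of all genes did, and 5 of the 9 read lowest on N2 3, as 26.3% of all genes did. These 5 genes met both conditions, as 15.1% of all genes did. The shift of mutant 3 from the mean of the other mutant arrays was 1.52 log2 units for lin-32, 0.89 for cnd-1, 0.80 for hlh-8, 0.74 for hlh-14, 0.61 for hlh-3 and 0.47 for hlh-1. It was 0.049 for hlh-2, −0.11 for hlh-4 and −0.17 for hlh-6. The shift of N2 3 from the other N2 arrays was −0.78 for lin-32 and −0.59 for cnd-1, and 0.26 for hlh-8, the only 1 of the 6 genes for which it was not below 0. The median shift over the 9 genes was 0.61 on mutant 3 and −0.15 on N2 3. Over the 18 early embryo markers these medians were 1.34 and −0.35, and over all genes 0 and −0.044. The part of the embryo share in the bHLH values was not tested.

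Other class II bHLH genes were read on the same arrays. Of 10 genes of related classes that were listed with them, 8 were on the array and 3 passed the filter. These were hlh-15, hlh-16 and hnd-1, the Hand counterpart with a role in early muscle, and hlh-10, hlh-12 and hlh-19 lay at the floor on all arrays. All 3 read highest on mutant 3, by 1.38, 1.20 and 1.82 log2 units over the other mutant arrays. However, hlh-15 reached a log2 value of 4 only on mutant 3, N2 1 and N2 2. It thus passed the filter only with its high value on mutant 3, and its rank there was in part set by the filter. For hlh-15 and for hlh-16, mutant 1 and mutant 2 held the same value. Over all arrays hlh-15 differed by 0.19 (SE 0.43; limma adjusted p 0.904), hlh-16 by 0.38 (SE 0.54; adjusted p 0.838) and hnd-1 by 0.24 (SE 0.63; adjusted p 0.924). These log2 differences were −0.40, −0.47 and −0.72 without both arrays of replicate 3.

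**Figure D3:**
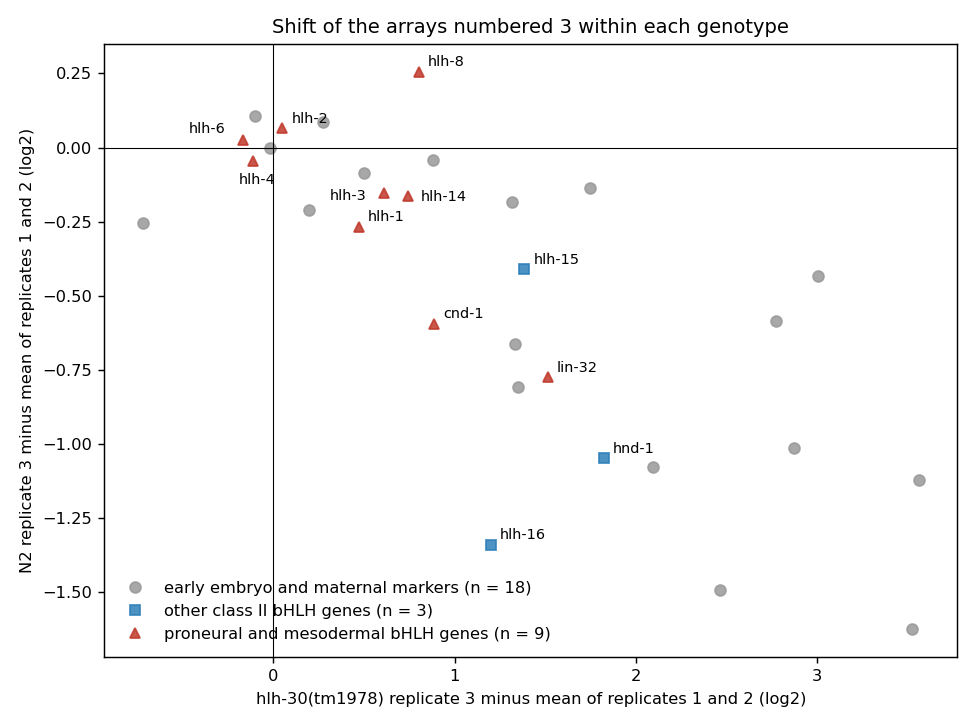
Shift of replicate 3 from the mean of replicates 1 and 2 in hlh-30(tm1978) (horizontal axis) and in N2 (vertical axis), in log2 units, with 1 point per gene for the 9 bHLH genes tested, 3 other class II bHLH genes and 18 early embryo and maternal markers. lin-32 lies at 1.52 and −0.78, on the side where most embryo markers lie, and hlh-2, hlh-4 and hlh-6 lie near the origin.

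Genes that act with or under these factors were read from lists. Among the muscle regulators that act with or before HLH-1, 7 of 11 were tested, 6 lay above 0 and 0 were called, with 0 at an unadjusted p under 0.05. The median was 0.11, and −0.16 without both arrays of replicate 3. The T-box gene tbx-8 differed by 0.10 (SE 0.11; limma adjusted p 0.799), skn-1, an early blastomere determinant, by 0.17 (SE 0.25; adjusted p 0.841) and unc-120, the SRF-type muscle factor, by 0.085 (SE 0.14; adjusted p 0.861). Structural genes of body wall muscle lay on the other side of 0 from hlh-1. They also shifted the other way on the arrays of replicate 3. Their median shift was −0.31 on mutant 3 and 0.33 on N2 3, beside 0.47 and −0.27 for hlh-1. Of 30 tested, 28 were below 0, with a median of −0.28. At an unadjusted limma p under 0.05, 12 were lower in the mutant, beside 632 of all 9113 genes. After adjustment 1 was called, beside 0.132% of all genes called lower. That gene, the troponin T gene tnt-2, fell by 1.01 on the log2 scale (SE 0.070; limma adjusted p 0.0352), with arrays at 12.75, 12.74 and 12.65 in the mutant and 13.64, 13.70 and 13.83 in N2.

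Next in p among the muscle genes were unc-27, a troponin I, at −0.66 (SE 0.063; limma adjusted p 0.0615) and mlc-3, a myosin light chain, at −0.65 (SE 0.12; adjusted p 0.190). Both had every mutant array under every N2 array, as 12 of the 30 genes did, where 9.87% of all genes did. Without both arrays of replicate 3 the median of the list was −0.069 and 19 of 30 were below 0, while tnt-2, unc-27 and mlc-3 differed by −0.92, −0.62 and −0.48. tnt-2 was also the 1 gene called without both of these arrays (limma adjusted p 0.042). With each single array left out in turn, 0 genes of the list were called, and tnt-2 differed by −1.05 to −0.95 (limma adjusted p 0.0823 to 0.203).

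In the mesoderm that HLH-8 patterns, 18 of 20 regulators and HLH-8 targets were tested, 12 lay below 0 and 5 above, and 0 were called, with 0 at an unadjusted p under 0.05. Their median was −0.10, and 0.056 without both arrays of replicate 3. arg-1 and mls-1, which are known HLH-8 targets, lay at the floor on all arrays. ceh-24 was among the tested genes but read 4.02 on every array, a difference of 0. The smallest p-values were those of ztf-16, a zinc finger gene, at −0.22 (SE 0.11; limma adjusted p 0.647), sma-9, the Schnurri counterpart, at −0.34 (SE 0.18; adjusted p 0.655), and let-381, a forkhead factor, at 0.13 (SE 0.070; adjusted p 0.665). Of the pharyngeal gland genes that depend on HLH-6, 10 of 11 were tested and 0 were called, with 0 at an unadjusted p under 0.05. Their median was −0.046, with 8 below 0 and 1 above. phat-1, also tested, read 8.01 on every array, a difference of 0. lys-8, a lysozyme gene, differed by −0.21 (SE 0.083; limma adjusted p 0.56), the gland mucin-like genes phat-4 by −0.12 (SE 0.098; adjusted p 0.769) and phat-3 by −0.044 (SE 0.048; adjusted p 0.803).

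Neuronal lists lay near 0. Touch receptor neuron genes, whose precursors need LIN-32, had 16 of 19 tested, 11 below 0, a median of −0.032 and 0 called, with 1 at an unadjusted p under 0.05. mec-6, which encodes a channel-associated protein, read 8.61, 8.71 and 9.10 on the mutant arrays and 8.55, 8.37 and 8.32 on the N2 arrays, a log2 difference of 0.39 (SE 0.15; limma adjusted p 0.545). The tubulin genes of touch neurons differed the other way, mec-7 by −0.22 (SE 0.088; limma adjusted p 0.573) and mec-12 by −0.24 (SE 0.099; adjusted p 0.587). In each of these 3 genes the mutant and N2 arrays did not overlap, with gaps of 0.061 for mec-6, 0.00060 for mec-7 and 0.014 for mec-12, and they made 3 of the 16 genes, where 13.6% of all genes did not overlap.

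In the list for neuron type specification 0 genes were called or at an unadjusted p under 0.05. Of its 44 genes 33 were tested, 22 lay below 0 and the median was −0.084. Of these, ham-3 differed by −0.22 (SE 0.12), the homeobox gene tab-1 by 0.16 (SE 0.090) and the homeobox gene unc-42 by 0.24 (SE 0.16), with limma adjusted p of 0.683, 0.689 and 0.719. Panneuronal genes had 25 of 28 tested, 19 below 0, a median of −0.11 and 0 called, with 2 at an unadjusted p under 0.05. There unc-51, a kinase that acts in axon growth and autophagy, differed by −0.32 (SE 0.11), unc-104, the synaptic vesicle kinesin, by −0.36 (SE 0.13) and sbt-1, the 7B2 counterpart, by −0.072 (SE 0.043), with limma adjusted p of 0.476, 0.503 and 0.692. Without both arrays of replicate 3 the medians of these neuronal lists were 0.088 for touch neurons, 0.054 for the specification factors and 0.051 for panneuronal genes, so each lay on the other side of 0.

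HLH-2 also acts in programmed cell death and in the anchor cell of the gonad. In that list 11 of 16 genes were tested, 9 lay above 0, the median was 0.099 and 0 were called, with 1 at an unadjusted p under 0.05. Without both arrays of replicate 3 the median was 0.0042, with 6 above 0 and 5 below, and without mutant 2 alone it was 0.044. fos-1, needed for anchor cell invasion, read 11.27, 11.19 and 11.03 on the mutant arrays and 11.36, 11.48 and 11.49 on the N2 arrays, a log2 difference of −0.28 (SE 0.084; limma adjusted p 0.413). ces-1, a Snail-family repressor of the death of specific neurons, read 7.88, 7.53 and 8.56 on the mutant arrays and 7.49, 7.32 and 6.97 on the N2 arrays. Its log2 difference was 0.73 (SE 0.31; limma adjusted p 0.591), and 0.30 without both arrays of replicate 3. ces-2, a bZIP factor that acts before ces-1, differed by 0.38 (SE 0.32; adjusted p 0.775), and by −0.082 without those arrays.

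**Figure D4:**
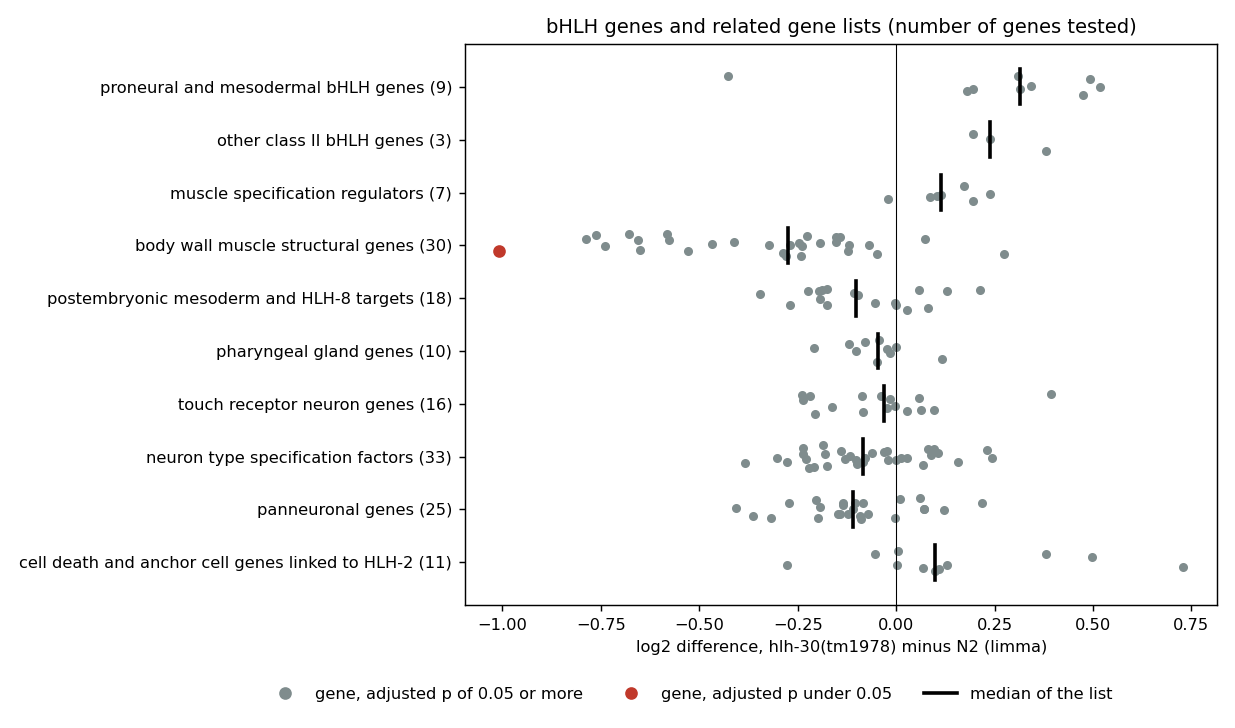
Log2 difference, hlh-30(tm1978) minus N2 (horizontal axis, limma), of each gene tested in the bHLH group and in 9 related lists, with the number of genes tested in brackets and the median as a black line. Body wall muscle structural genes lie mostly below 0, with tnt-2 in red as the only gene called, and 8 of the 9 bHLH genes lie above 0.

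The genes whose pattern over the 6 arrays was most like that of hlh-1, by Pearson correlation as a measure of likeness, were the profilin gene pfn-3 (0.985), pals-22 (0.978) and R06A10.1 (0.977). For hlh-2 at 193176_s_at they were the nuclear receptor gene nhr-4 (0.973), rsp-8, an SR-protein gene (0.969), and fmo-1, a flavin monooxygenase gene (0.964). With 6 arrays such values are common, and 111 genes reached over 0.9 with hlh-1 and 36 with hlh-2. pfn-3 read 12.35, 12.46 and 12.79 on the mutant arrays and 12.20, 12.20 and 11.88 on the N2 arrays, thus also highest on mutant 3 and lowest on N2 3.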

How the data were processed

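The table the authors deposited holds a log2 expression value for each probe set on each array. GCRMA, a normalization for Affymetrix arrays that corrects background by probe sequence, and limma are named per the submitters' processing notes, with no version or setting. Biotin-labelled RNA was produced by in vitro transcription, per the labels' protocols. Values at or near the shared floor of 2.04 hide differences between dim genes, and "at the floor" means within 0.05 of it on all arrays.

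Groups and replicate numbers came from the sample titles. Gene names came from the platform annotation (20766 with 1 gene, 887 with several, 895 with none), of which 20701 matched RefSeq by Entrez gene number. Probe sets with a log2 value of at least 4 on at least 3 arrays were tested (12060), and a gene was represented by its probe set with the highest mean (9113 genes). Mutant minus N2 was fitted without covariates by lmFit and eBayes of limma 3.58.1 (R 4.3.3). P-values were adjusted by Benjamini-Hochberg across the 12060 probe sets, and calls were made under 0.05. The fit was tested on simulated data with independent normal errors. Those data did not carry the identical values or the shared deviations of arrays seen here, so the simulation does not cover them. An exact permutation test of 3 against 3 arrays cannot give a two-sided p under 0.1, so none was used. The bHLH genes, 9 related lists and 6 marker lists (early embryo, larval cuticle and moulting, intestine, body wall muscle, neurons, pharyngeal glands) were chosen with earlier results of these data known, as was the alternative without both arrays of replicate 3. Lists share genes, such as skn-1 and mex-3 in the muscle regulators and the embryo markers. Named from each related list were up to 3 tested genes with the smallest p. Of the related lists, genes at the floor are named for the class II bHLH and HLH-8 lists only, chosen after their values were seen. Of the marker lists, rgef-1 and chs-1 are named as at the floor. Also named are ceh-24 and phat-1, which each held the same value on all arrays.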

Additional observations from a re-analysis of the deposited data

How the results depend on the processing

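None of the bHLH genes was called under any alternative run, and their limma adjusted p ran from 0.212 to 1 over all of them. Differences below 0 in place of above were seen for lin-32 without both arrays of replicate 3 (−0.27), without mutant 3 (−0.012, the lowest of a range up to 0.77 with 1 array left out) and with array quality weights (−0.16), and for cnd-1 without both arrays of replicate 3 (−0.15). The flat hlh-2 probe set read 0.042 after quantile normalization and 0.044 after median centring, where the median of all genes was 0.023 and 0.051. The count of bHLH genes at an unadjusted p under 0.05 ran from 0 to 2 with 1 array left out, and was 0 with array quality weights and without both arrays of replicate 3. Without the filter no bHLH gene's adjusted p was under 1. The cause of these changes was not tested.

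Over all genes, 12 were called lower and 1 higher, with 16 probe sets. With 1 array left out these were 0 to 2, 0 to 1 and 0 to 4. They were 1, 0 and 5 with no filter, 447, 142 and 804 with array quality weights, and 177, 27 and 239 without both arrays of replicate 3. Quantile normalization gave 17 lower and 2 higher with 25 probe sets, averaging the probe sets of each gene 27 lower, and unadjusted p under 0.05 632 lower and 151 higher. Of the muscle structural genes, 0 were called with any 1 array left out, with no filter and with median centring, and 9 with array quality weights. Those weights, lowest for mutant 3 (0.119) and N2 3 (0.266), also gave 4 calls among 7 body wall muscle markers, 2 among early embryo markers, and 1 each among intestine and larval cuticle markers.

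Deviations of same-numbered arrays from their genotype means correlated at −0.41, −0.42 and −0.52. Those of differently numbered arrays ran from −0.47 (mutant 2 and N2 1) to 0.53 (mutant 2 and N2 3). Deviations within so few arrays per genotype cannot decide whether the replicate numbers pair the arrays. With the replicate block 0 genes were called lower, 0 higher, 0 probe sets and 0 muscle structural genes, with 1 bHLH gene at an unadjusted p under 0.05.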

Other observations

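Markers of tissues and of the larval stages were read beside the bHLH genes. Larval cuticle and moulting markers had 21 of 22 tested and 18 above 0, with a median log2 difference of 0.30 between mutant and N2, and 0 called in limma or at an unadjusted p under 0.05. The median was 0.12 without both arrays of replicate 3 and 0.056 without N2 3 alone. Mean log2 values of that list ran from 12.67 to 12.87 on the mutant arrays and from 12.24 to 12.72 on the N2 arrays. In 4 of the 21 every mutant array lay above every N2 array, where 3.76% of all genes did. Among intestine markers 12 of 13 lay below 0, with a median of −0.18 and 0 called in limma. At an unadjusted limma p under 0.05, 4 of them were lower in the mutant, beside 632 of all 9113 genes. In 6 of the 13 every mutant array lay under every N2 array, where 9.87% of all genes did. The intestine median was −0.17 without both arrays of replicate 3, with 10 genes below 0 and 3 above.

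The body wall muscle, neuron and pharyngeal gland markers repeat genes of the related lists. The 7 body wall muscle markers were also among the 30 structural genes (median −0.28). All 7 lay below 0, with a median of −0.58 and 0 called. Of them 4 were lower at an unadjusted limma p under 0.05, beside 632 of all 9113 genes. Without both arrays of replicate 3 the median was −0.35. Neuron markers had a median of −0.038 over 6 genes, and pharyngeal gland markers one of −0.048 over 7 genes, with 0 called in either list or at an unadjusted p under 0.05.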
